A study of Saccharomyces cerevisiae with 21 samples.

Results

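The set described here is 10 genes of zinc handling in budding yeast, followed across all groups of the study: the regulator ZAP1, the transporters ZRT1, ZRT2 and ZRT3, the zinc-regulated genes ZPS1 and ADH4, and the IZH family (IZH1, IZH2, IZH3 and IZH4). They were chosen by name, and all 10 were found among the 6407 genes of the table of levels. Messenger RNA had been sequenced from 21 libraries of Saccharomyces cerevisiae, strain background W303, in 7 groups of 3 biological replicates. Cultures in YPD, a rich medium with glucose, were collected in mid-log phase, the replicates on separate days. The study asks how transcriptional interference is regulated by Swi/Snf, an ATP-dependent nucleosome remodeller.

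Each strain lacked its native gene for 1 Swi/Snf subunit. In the SWI3 family, named for a structural subunit, all strains were swi3 deletions: the SWI3 group carried a wild-type copy linked to LEU2, swi3-E815X carried that mutant copy linked to LEU2, and swi3del carried LEU2 alone. In the SNF2 family, named for the ATPase, all strains were snf2 deletions, with SNF2, snf2-W935R or snf2-Q928K linked to LEU2, or LEU2 alone (snf2del). SWI3 RNA stood at 37.1 ± 1.38 TPM in the SWI3 group and 0.127 ± 0.0601 in swi3del (mean ± SD, n = 3), as the labels say. The SNF2 transcript was not analysed here. Levels are in TPM, a unit scaled to gene length and library total, so that they can be compared between genes; their sums per library ran from 960811 to 1000396. TPM keeps no record of read number, so depth is unknown.

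Yeast cells sense a shortage of zinc through Zap1, a transcription activator that is more active when zinc is scarce and that also acts on its own gene. Zap1 binds the zinc-responsive element, a short palindrome in the promoters of its targets. Zrt1 and Zrt2 are the high-affinity and low-affinity zinc importers of the plasma membrane, and Zrt3 releases zinc stored in the vacuole. ZPS1 encodes a cell-surface or secreted protein, and ADH4 an alcohol dehydrogenase isozyme, both known as genes induced in zinc-poor cells. The Izh proteins are membrane proteins of the progestin and adipoQ receptor family, known from yeast genetics to affect zinc homeostasis. Zinc was not varied in this study, and zinc in the cells was not measured.

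The zinc-responsive elements are shown because they separate the 10 genes into those with and without a match near the start codon. The letters ACCTTNAAGGT, which read the same on both strands, were searched in the 500 bases before each start codon of the R64 genome, and no other motif was searched. An exact match was found for 9 of 6002 protein-coding genes (0.15%), and a match with up to 1 mismatch for 118 (1.97%). Among the 10 genes ZRT1 had an exact match, and 6 genes had a match with up to 1 mismatch: ZAP1, ZRT1, ZRT2, ZRT3, ZPS1 and IZH1. No match was found in this window for ADH4, IZH2, IZH3 or IZH4. The stretches are written in the direction of the gene, with the match in capitals and 15 bases on each side of it, and the coordinates are those of the whole stretch. For ZRT1 the stretch around the exact match is chrVII:20759-20799 (plus strand), with the match itself at 20774 to 20784, and that around the match with 1 mismatch is chrVII:20644-20684. The other stretches, each match with 1 mismatch, are chrX:333192-333232 (ZAP1, minus), chrXII:404348-404388 and chrXII:404299-404339 (ZRT2, minus), chrXI:118623-118663 (ZRT3, plus), chrXV:34314-34369 (ZPS1, plus, 2 matches) and chrIV:1434492-1434532 (IZH1, plus).
ZRT1 exact: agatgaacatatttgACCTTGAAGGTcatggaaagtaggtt
ZRT1 further upstream: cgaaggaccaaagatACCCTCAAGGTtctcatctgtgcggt
ZAP1: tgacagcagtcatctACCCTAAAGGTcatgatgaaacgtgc
ZRT2 far: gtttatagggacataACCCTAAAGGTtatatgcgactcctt
ZRT2 near: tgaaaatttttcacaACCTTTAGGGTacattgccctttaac
ZRT3: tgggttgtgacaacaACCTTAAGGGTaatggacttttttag
ZPS1: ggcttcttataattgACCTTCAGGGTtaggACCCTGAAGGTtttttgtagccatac
IZH1: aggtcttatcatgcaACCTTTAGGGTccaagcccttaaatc

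Because ZRT1 had the largest fall and IZH4 the largest rise against the own wild type, 200 bases of their promoters, from 300 to 101 bases before the start codon, are also given, at chrVII:20678-20877 (plus strand) and chrXV:128021-128220 (minus strand). The capitals mark the exact zinc-responsive element. A match is a description of the letters, not evidence of binding, and a window without one says nothing of Zap1.
ZRT1 promoter: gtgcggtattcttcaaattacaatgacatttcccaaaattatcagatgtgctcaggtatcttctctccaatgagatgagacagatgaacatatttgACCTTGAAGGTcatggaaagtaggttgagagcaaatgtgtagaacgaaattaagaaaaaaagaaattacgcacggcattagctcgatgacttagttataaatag
IZH4 promoter: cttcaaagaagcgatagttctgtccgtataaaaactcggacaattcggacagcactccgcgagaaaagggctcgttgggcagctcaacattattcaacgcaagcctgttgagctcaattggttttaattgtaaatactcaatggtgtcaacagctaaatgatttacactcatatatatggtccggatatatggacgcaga

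ZRT1 was the gene of this set that fell furthest, and it fell most in the strains with a mutant copy of SNF2 rather than in those with no copy. Its mean level in SNF2, the highest group, was 3.33 times that of snf2-W935R, the lowest. The 4 IZH genes moved otherwise and rose in both deletions and in snf2-Q928K, IZH4 by the most. Of all genes, 47.4% were called higher in swi3del, 50.2% in snf2del and 36.3% in snf2-Q928K. ZRT3 and ZPS1 also rose in these 3 groups, so such rises are not particular to the IZH genes. In snf2-W935R limma called IZH3 alone of the IZH genes higher, a call that the authors' deposited table does not make. In swi3-E815X no IZH gene passed the test in the fit of its family.

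Every change is a difference in log2(TPM + 1), given ± its standard error; on this scale the change of a low gene is understated. Changes were fitted with limma over all genes, and a gene is called at a Benjamini-Hochberg adjusted p under 0.05, two-sided, with n = 3 libraries per group. In the deletions most genes shifted: the median gene stood 0.23 higher in swi3del and 0.26 higher in snf2del than in the wild type, and 0.10 higher in snf2-Q928K. Median-ratio scaling removed 0.23, 0.25 and 0.11 of this, so for these groups the change less that of the median gene is given too. In cells taken as a whole, less RNA of a gene per cell and fewer cells expressing it cannot be told apart.

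**Figure D1:**
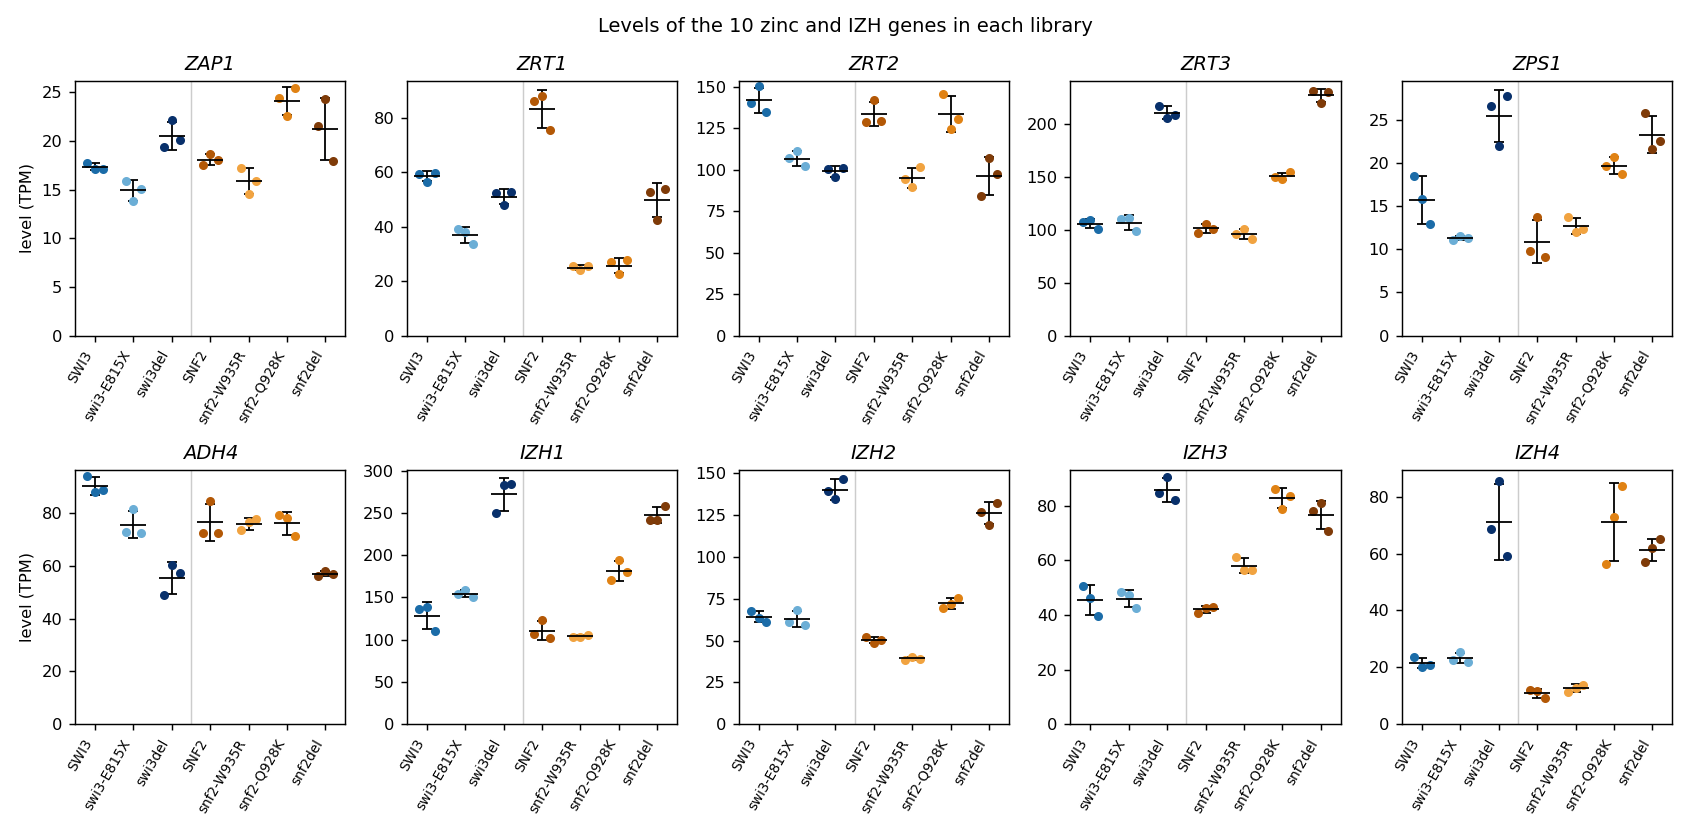
Levels of the 10 genes in TPM (vertical axes from 0, one panel a gene) in each of the 21 libraries. Coloured points are libraries, black dashes the group means and bars 1 SD (n = 3), with the SWI3 family left of the grey line and the SNF2 family right of it; ZRT1 is lowest in snf2-W935R and snf2-Q928K, and IZH4 is high in swi3del, snf2-Q928K and snf2del.

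ZRT1, the high-affinity importer (YGL255W, chromosome VII 20978 to 22108 in R64, plus strand), stood at 86.2, 88.0 and 75.3 TPM in the 3 SNF2 libraries. In snf2-W935R it stood at 25.5, 24.0 and 25.5 TPM, and in snf2-Q928K at 26.9, 22.5 and 27.6. The snf2del libraries held 52.8, 42.4 and 53.6 TPM. All 3 mutant groups thus lay below every SNF2 library, and both ATPase alleles lay below every snf2del library. Against SNF2 the log2 change was -1.69 ± 0.10 in snf2-W935R (limma adjusted p = 1.61e-08) and -1.66 ± 0.10 in snf2-Q928K (adjusted p = 7.52e-09). In snf2del it was -0.74 ± 0.10 (adjusted p = 1.09e-05), and lay further below the median gene, which rose there.

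The same order held in the SWI3 family. ZRT1 stood at 59.5, 56.5 and 59.7 TPM in SWI3, at 39.0, 38.0 and 33.7 in swi3-E815X, and at 52.5, 47.8 and 52.6 in swi3del. The allele fell below both the wild type and the deletion, with no overlap between groups. Its change against SWI3 was -0.66 ± 0.08 (limma adjusted p = 1.27e-04), and that of swi3del -0.20 ± 0.08 (adjusted p = 0.0382), or -0.43 relative to the median gene. The call in swi3del was lost without SWI3 replicate 1 (-0.19), 2 (-0.22) or 3 (-0.18) or swi3del replicate 2 (-0.15) and with all 21 libraries in the fit (adjusted p = 0.0617), and in the authors' deposited table ZRT1 was not called there (adjusted p = 0.206).

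Each point allele was also set against the deletion of its own subunit. ZRT1 was lower than in snf2del by -0.96 ± 0.10 in snf2-W935R (limma adjusted p = 1.03e-06) and by -0.92 ± 0.10 in snf2-Q928K (adjusted p = 3.59e-06). It was lower in swi3-E815X than in swi3del by -0.46 ± 0.08 (adjusted p = 2.40e-04). That last difference kept its sign after quantile scaling, at -0.19, but no longer passed. Between snf2-Q928K and snf2-W935R the difference was 0.03, with a 95% confidence interval from -0.19 to 0.25.

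The wild types themselves differed in ZRT1. SNF2 stood above SWI3, 83.2 ± 6.87 against 58.6 ± 1.80 TPM, a log2 difference of 0.50 ± 0.09 (limma adjusted p = 0.00187). Over the 7 groups the order of means ran upward from snf2-W935R through snf2-Q928K, swi3-E815X, snf2del, swi3del and SWI3 to SNF2. In that order snf2-W935R overlapped with snf2-Q928K and snf2del with swi3del, and no other neighbours did.

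ZRT2, the low-affinity importer (YLR130C, chromosome XII 402794 to 404062, minus strand), did not follow ZRT1 in snf2-Q928K. It stood at 129, 142 and 129.6 TPM in SNF2 and at 146, 124 and 131 in snf2-Q928K, groups that overlapped, with a 95% confidence interval of the log2 change from -0.19 to 0.19. In snf2-W935R it stood at 94.4, 89.5 and 102 TPM and in snf2del at 84.3, 107 and 97.3, all below the SNF2 libraries. ZRT2 fell by 0.48 ± 0.09 on the log2 scale in snf2-W935R (limma adjusted p = 9.52e-04) and by 0.47 ± 0.09 in snf2del (adjusted p = 2.14e-04), the latter -0.73 relative to the median gene. The authors' deposited tables called ZRT2 in snf2del but not in snf2-W935R (adjusted p = 0.126).

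In the SWI3 family ZRT2 went from 140.3, 150.2 and 134.9 TPM in SWI3 to 107, 111 and 102.0 in swi3-E815X and 100.2, 95.4 and 101 in swi3del. Neither mutant overlapped with the wild type. The log2 changes were -0.41 ± 0.07 in swi3-E815X (limma adjusted p = 0.00217) and -0.51 ± 0.07 in swi3del (adjusted p = 2.96e-05), or -0.75 relative to the median. Its highest group mean was 1.49 times its lowest, the narrowest span among the 10 genes.

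ZRT3, the vacuolar zinc exporter (YKL175W, chromosome XI 118793 to 120304, plus strand), moved the other way. Its levels were 107, 109 and 100.4 TPM in SWI3, 110.0, 111 and 98.3 in swi3-E815X, and 217, 205 and 208 in swi3del. The deletion had about 1.99 times the wild-type level, while the allele overlapped with the wild type. In the SNF2 family ZRT3 stood at 96.7, 106 and 101 TPM in SNF2, 96.1, 101 and 91.1 in snf2-W935R, 149, 148 and 154 in snf2-Q928K, and 231, 219.6 and 229.8 in snf2del. The snf2-Q928K libraries thus lay between those of SNF2 and snf2del without touching either. Log2 changes against the own wild type were 0.99 ± 0.07 in swi3del (limma adjusted p = 1.42e-07), 1.16 ± 0.06 in snf2del (3.78e-10) and 0.57 ± 0.06 in snf2-Q928K (1.89e-06). Relative to the median gene these were 0.75, 0.90 and 0.47.

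ZAP1, the regulator (YJL056C, chromosome X 330431 to 333073, minus strand), was among the lowest of the 10 genes in level and changed little. It stood at 17.5, 18.7 and 18.0 TPM in SNF2 and at 24.4, 22.6 and 25.4 in snf2-Q928K, a rise of 0.40 ± 0.10 (limma adjusted p = 0.00489). The snf2-W935R libraries held 17.2, 14.6 and 15.9 TPM, and those of snf2del 21.5, 24.3 and 17.9. Neither passed the test (adjusted p = 0.241 and 0.0792), but without snf2del replicate 3 the change in snf2del was 0.32 and passed. In the authors' deposited table ZAP1 was not called in snf2-Q928K (adjusted p = 0.77).

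In the SWI3 family ZAP1 had 17.7, 17.1 and 17.2 TPM in SWI3, 15.9, 13.8 and 15.1 in swi3-E815X, and 19.4, 22.1 and 20.1 in swi3del. The change in swi3del was 0.23 ± 0.09 (limma adjusted p = 0.0411), which equals the shift of the median gene; it was 0.0046 after median-ratio scaling and -0.13 after quantile scaling. This call was also lost without SWI3 replicate 1 (0.25), 2 (0.22) or 3 (0.22), without swi3-E815X replicate 3 (0.23), without swi3del replicate 2 (0.18) or 3 (0.24), with a replicate block or only the groups compared (0.23 in both), and against the other wild type (0.17). ZAP1 RNA did not fall in snf2-Q928K, where ZRT1 RNA was low. In swi3-E815X and snf2-W935R, where ZRT1 was also low, every ZAP1 library lay below its wild type. These ZAP1 changes, -0.21 ± 0.09 and -0.18 ± 0.10, did not pass (limma adjusted p = 0.215 and 0.241). Whether the levels of ZAP1 and ZRT1 are linked was not tested.

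ZPS1 (YOL154W, chromosome XV 34658 to 35407, plus strand) was raised where ZRT1 was lowered in snf2-Q928K. Its levels were 9.81, 13.7 and 9.09 TPM in SNF2, 19.7, 20.7 and 18.7 in snf2-Q928K and 25.7, 21.6 and 22.5 in snf2del, with both mutants above every wild-type library. Changes were 0.82 ± 0.13 in snf2-Q928K (limma adjusted p = 7.87e-05) and 1.05 ± 0.13 in snf2del (3.09e-06), or 0.72 and 0.79 relative to the median. In snf2-W935R ZPS1 stood at 13.8, 12.0 and 12.4 TPM and was not called, though without SNF2 replicate 2 its change of 0.39 passed.

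SWI3 libraries held 18.5, 15.8 and 12.9 TPM of ZPS1, those of swi3-E815X 11.1, 11.5 and 11.3, and those of swi3del 26.6, 22.0 and 27.7. The gene rose by 0.67 ± 0.13 in swi3del (limma adjusted p = 6.44e-04), or 0.43 relative to the median. In swi3-E815X the change of -0.43 ± 0.13 did not pass (adjusted p = 0.067), but it did with all 21 libraries in the fit (adjusted p = 0.0392) and, at -0.56, without SWI3 replicate 3. In the authors' deposited tables ZPS1 was called in neither swi3del nor snf2-Q928K (adjusted p = 0.484 and 0.434), and it is not listed for snf2del, where the file holds only genes that passed.

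ADH4 (YGL256W, chromosome VII 15159 to 16307, plus strand) lies 15.2 kb from its chromosome end and was called lower in both deletions. In the SNF2 family it had 72.6, 84.7 and 72.5 TPM in SNF2, 73.5, 76.7 and 77.7 in snf2-W935R, 79.3, 78.0 and 71.2 in snf2-Q928K, and 56.2, 58.2 and 56.9 in snf2del. The 3 groups with a copy of SNF2, wild-type or mutant, overlapped, and snf2del lay below them. The change in snf2del was -0.41 ± 0.07 (limma adjusted p = 1.23e-04), or -0.67 relative to the median. For snf2-W935R and snf2-Q928K the 95% confidence intervals ran from -0.17 to 0.15 and from -0.16 to 0.15.

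SWI3 libraries had 94.2, 88.0 and 88.6 TPM of ADH4, those of swi3-E815X 72.9, 81.6 and 72.4, and those of swi3del 48.9, 60.3 and 57.1. The fall in swi3del was -0.70 ± 0.09 (limma adjusted p = 1.87e-05), or -0.93 relative to the median. In swi3-E815X the libraries lay below the wild type, but the change of -0.25 ± 0.09 did not pass (adjusted p = 0.108). It passed with all 21 libraries in the fit (adjusted p = 0.0413). Against the other family's wild type ADH4 was also called lower in snf2-W935R (-0.25, adjusted p = 0.0231) and snf2-Q928K (-0.24, adjusted p = 0.0132), in limma's fit of all libraries. Both alleles of SNF2 and swi3-E815X stood above the deletion of their subunit, by 0.41 ± 0.07, 0.41 ± 0.07 and 0.44 ± 0.09, each past the test at an adjusted p of 7.34e-04 or less.

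IZH4 (YOL101C, chromosome XV 126982 to 127920, minus strand) had the widest range of the 10 genes, 6.51-fold between the highest and the lowest group mean. It stood at 12.1, 11.6 and 9.10 TPM in SNF2 and 11.2, 12.9 and 13.9 in snf2-W935R, which overlapped. In snf2-Q928K it reached 56.5, 72.9 and 83.7 TPM and in snf2del 57.2, 61.8 and 65.0, which also overlapped with each other. Against SNF2 the log2 change was 2.58 ± 0.14 in snf2-Q928K (limma adjusted p = 2.50e-09) and 2.39 ± 0.14 in snf2del (1.35e-09), or 2.49 and 2.13 relative to the median. In snf2-W935R it was 0.20 ± 0.14 (adjusted p = 0.307).

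In the SWI3 family IZH4 had 23.5, 20.2 and 20.9 TPM in SWI3, 22.6, 25.5 and 22.0 in swi3-E815X, and 68.8, 85.7 and 59.2 in swi3del. Only the deletion lay apart from the wild type in this family, at 1.67 ± 0.12 (limma adjusted p = 2.00e-07), or 1.43 relative to the median gene. The SWI3 wild type had about double the RNA of the SNF2 wild type, the log2 difference of SNF2 from SWI3 being -0.92 ± 0.14 (adjusted p = 1.45e-04). Set against the SWI3 wild type instead, snf2-W935R was lower in IZH4, at -0.72. Set against the SNF2 wild type, swi3-E815X was higher, at 1.04.

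IZH1 (YDR492W, chromosome IV 1434924 to 1435874, plus strand) was the most abundant member of the family. It had 136, 139 and 111 TPM in SWI3, 154, 159 and 150.2 in swi3-E815X and 249.7, 283 and 284 in swi3del. In the SNF2 family the values were 107, 123 and 103 in SNF2, 103, 103 and 106 in snf2-W935R, 171, 194 and 179.7 in snf2-Q928K, and 242, 242 and 259 in snf2del. The groups of snf2-Q928K, of both deletions and of swi3-E815X lay wholly above their wild types, but the change of 0.27 ± 0.09 in swi3-E815X did not pass (limma adjusted p = 0.0966). With all 21 libraries in the fit it passed (adjusted p = 0.0382), and against the SNF2 wild type IZH1 was higher in swi3-E815X, at 0.48, and lower in snf2-W935R against the SWI3 wild type, at -0.29. Log2 changes were 1.08 ± 0.09 in swi3del (limma adjusted p = 5.57e-07), 1.15 ± 0.07 in snf2del (2.94e-09) and 0.71 ± 0.07 in snf2-Q928K (1.45e-06), which relative to the median gene were 0.85, 0.90 and 0.61.

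IZH2 (YOL002C, chromosome XV 323411 to 324364, minus strand) was the one IZH gene that limma called lower in snf2-W935R. It went from 52.1, 48.5 and 50.4 TPM in SNF2 to 38.5, 40.4 and 39.0 in that allele, a change of -0.35 ± 0.07 (limma adjusted p = 0.00109). In snf2-Q928K it had 69.4, 71.9 and 75.5 TPM and in snf2del 127, 119 and 132, both above the wild type. These rises were 0.51 ± 0.07 (adjusted p = 1.15e-05) and 1.31 ± 0.07 (2.42e-10), or 0.42 and 1.05 relative to the median. The authors' deposited tables did not call IZH2 in snf2-W935R (adjusted p = 0.833) or in snf2-Q928K (adjusted p = 0.319). In the SWI3 family its levels were 67.9, 63.3 and 61.4 TPM in SWI3, 61.1, 68.1 and 59.4 in swi3-E815X, and 139, 135 and 147 in swi3del, where it rose by 1.11 ± 0.08 (adjusted p = 1.02e-07), or 0.88 relative to the median. Against the SNF2 wild type IZH2 was called higher in swi3-E815X, at 0.31.

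IZH3 (YLR023C, chromosome XII 185498 to 187129, minus strand) was the one IZH gene that limma called higher in snf2-W935R. SNF2 libraries had 40.8, 42.5 and 42.9 TPM, those of snf2-W935R 61.2, 56.4 and 56.4, those of snf2-Q928K 86.1, 78.8 and 83.7, and those of snf2del 78.2, 81.0 and 70.8. All 3 mutants lay above the wild type, and snf2-W935R lay below the other 2. The rises were 0.45 ± 0.07 for snf2-W935R (limma adjusted p = 2.13e-04), 0.96 ± 0.07 for snf2-Q928K (3.78e-08) and 0.85 ± 0.07 for snf2del (4.53e-08). In the authors' deposited tables IZH3 was not called in snf2-W935R (adjusted p = 0.707) and is not listed for snf2del. In the SWI3 family IZH3 had 50.7, 46.3 and 39.5 TPM in SWI3, 48.4, 47.2 and 42.4 in swi3-E815X, and 84.6, 90.6 and 82.1 in swi3del, a rise of 0.91 ± 0.10 in the deletion (adjusted p = 4.10e-06). Relative to the median gene the rises were 0.86 in snf2-Q928K, 0.59 in snf2del and 0.67 in swi3del.

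**Figure D2:**
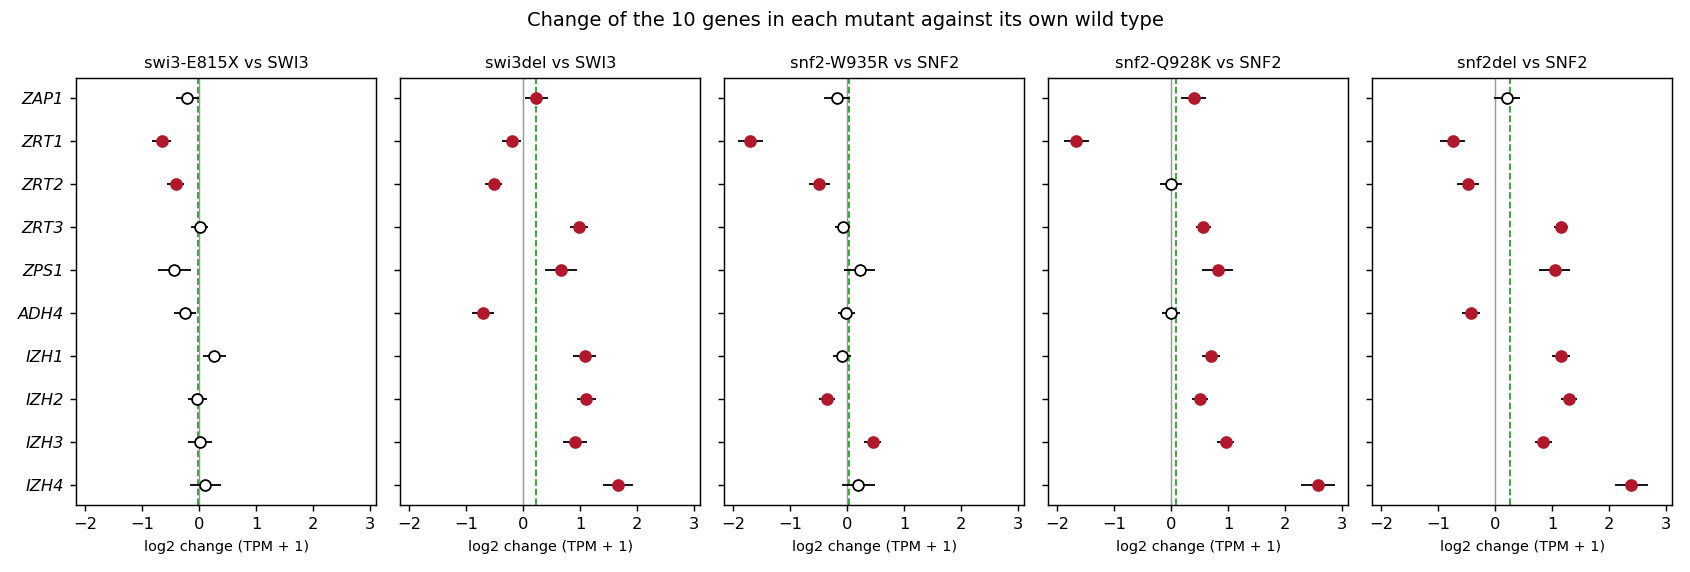
Log2 changes of TPM + 1 (horizontal axis) of the 10 genes in the 5 mutants against their own wild type. Filled red points passed limma's test and open points did not; lines are 95% confidence intervals, the grey line marks 0 and the green dashed line the median of all genes. ZRT1 lies furthest left in both ATPase alleles, at -1.69 and -1.66, and IZH4 furthest right in snf2-Q928K, at 2.58.

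Counted over the set, 7 of the 10 genes were higher and 3 lower in swi3del, where 47.4% of all 6395 genes tested were called higher and 24.3% lower. In snf2del 6 were higher and 3 lower, against 50.2% and 24.6% of 6398 genes. In snf2-Q928K 7 were higher and 1 lower, against 36.3% and 20.7%. In snf2-W935R 1 was higher and 3 lower, against 16.3% and 10.9%. With calls this common, the counts in the deletions are near the background.

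In swi3-E815X limma called 0 of the 10 genes higher and 2 lower, against 3.06% and 5.77% of all genes. At an unadjusted p under 0.05 the counts were 1 higher and 5 lower. The share of all genes at an unadjusted p was not counted, here or for other comparisons, so such counts have no background. The authors' deposited table calls 0 of the 10 in either direction, among 51 genes called higher and 60 lower in all. There 2 of the 10 were given no adjusted p. The median change of the set was 0.79 in swi3del against 0.23 over all genes, 0.95 against 0.26 in snf2del, and 0.54 against 0.10 in snf2-Q928K. It was -0.08 against 0.03 in snf2-W935R and -0.12 against -0.03 in swi3-E815X. Of all calls, 66.1% were rises in swi3del, 67.1% in snf2del and 63.6% in snf2-Q928K; after median-ratio scaling the shares were 50.1%, 50.2% and 49.2%.

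The authors' deposited tables made fewer calls among the 10 genes. They call 5 higher and 2 lower in swi3del, where the authors' deposited table calls 1028 genes higher and 1090 lower in all. In snf2del the authors' deposited table calls 4 and 3 of the 10, among 1097 and 1105 genes. In snf2-Q928K it calls 4 and 1, among 556 and 518, and in snf2-W935R 0 and 1, among 161 and 137. For snf2-W935R 3 of the 10 were given no adjusted p. The number of genes the authors tested was not counted here, so these totals are not given as shares. For ZRT1 the log2 fold changes in the authors' deposited tables were -1.76 ± 0.30 for snf2-W935R, -1.80 ± 0.29 for snf2-Q928K, -1.01 ± 0.26 for snf2del and -0.65 ± 0.30 for swi3-E815X. All but the last passed there (adjusted p = 0.536 for swi3-E815X). For IZH4 the authors' deposited tables give 2.60 ± 0.39 in snf2-Q928K, 2.23 ± 0.40 in snf2del and 1.48 ± 0.33 in swi3del, each called.

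The ATPase alleles were compared directly with each other. Of the 10 genes 8 were higher in snf2-Q928K than in snf2-W935R and 0 lower by limma, where 30.0% of all genes were higher and 14.1% lower; at an unadjusted p under 0.05 the counts were also 8 and 0. The largest difference was in IZH4, at 2.38 ± 0.14 (adjusted p = 4.47e-08). IZH2 differed by 0.86 ± 0.07, IZH1 by 0.79 ± 0.07, ZRT3 by 0.64 ± 0.06, ZPS1 by 0.59 ± 0.13, ZAP1 by 0.57 ± 0.10, IZH3 by 0.51 ± 0.07 and ZRT2 by 0.48 ± 0.09, at adjusted p-values of 0.00191 or less. ZRT1 and ADH4 were the genes not called. The interval for ZRT1 is given above, and for ADH4 the interval of the difference ran from -0.15 to 0.16.

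Set against snf2del, snf2-W935R had 1 of the 10 genes higher (ADH4) and 8 lower, where 23.4% and 48.5% of all genes were called so. IZH4 was lower by -2.19 ± 0.14 (limma adjusted p = 6.69e-09) and IZH2 by -1.66 ± 0.07 (5.81e-11). The exception, ZRT2, overlapped between these groups; its difference passed as higher in snf2-W935R, at 0.22, only after median-ratio scaling. ZAP1 was lower by -0.39 ± 0.10 and lost its call after median-ratio (-0.16) and quantile (-0.03) scaling. In snf2-Q928K 2 genes were higher (ZRT2 and ADH4) and 4 lower (ZRT1, ZRT3, IZH1 and IZH2), against 22.3% and 40.5%. For IZH4 and IZH3 the differences of snf2-Q928K from snf2del were 0.19 and 0.11, with 95% confidence intervals from -0.10 to 0.48 and from -0.04 to 0.26. After median-ratio scaling, both passed as higher in snf2-Q928K, at 0.34 and 0.26, as did ZAP1 at 0.32; without snf2-Q928K replicate 1 IZH4 passed too, at 0.35, and without snf2del replicate 2 ZAP1 did, at 0.28.

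The allele swi3-E815X had 1 of the 10 genes above swi3del (ADH4) and 8 below, against 20.9% and 48.0% of all genes. IZH4 was lower by -1.55 ± 0.12 (limma adjusted p = 4.90e-07), IZH2 by -1.15 ± 0.08 (1.16e-07), ZPS1 by -1.10 ± 0.13 (1.36e-05) and ZRT3 by -0.98 ± 0.07 (2.16e-07). ZRT2 differed by 0.11 and passed only after median-ratio (0.37) or quantile (0.32) scaling. ZAP1, lower by -0.44 ± 0.09, lost its call under both scalings, at -0.19 and -0.03.

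**Figure D3:**
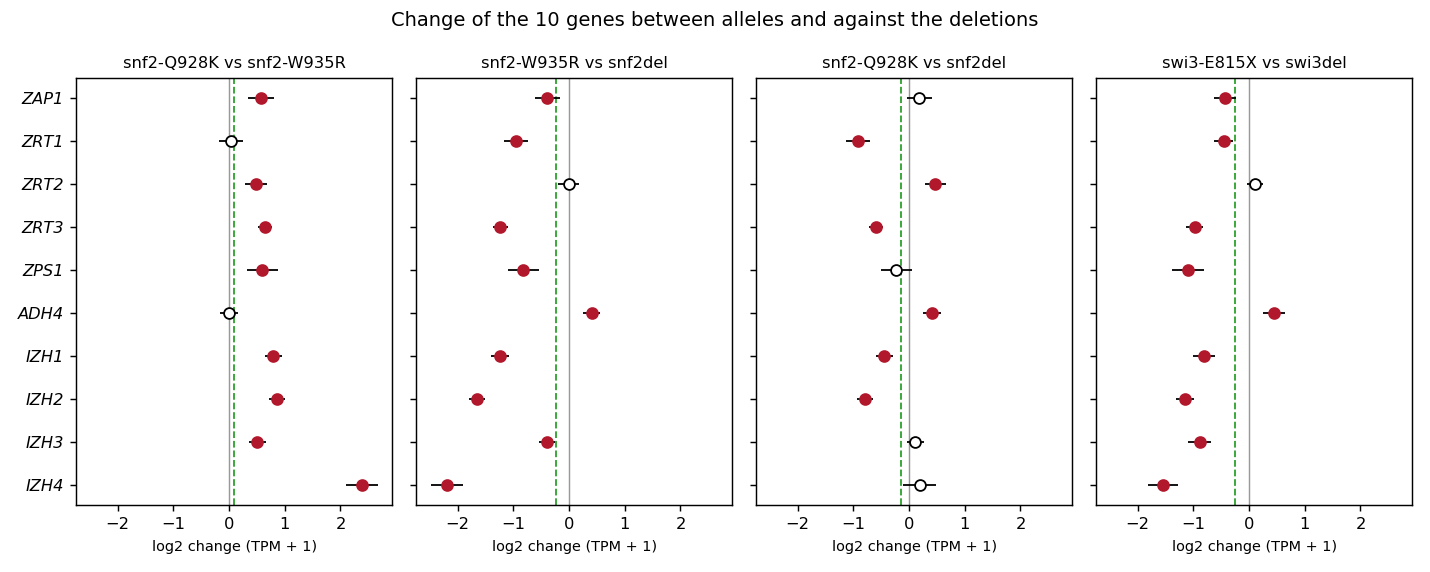
Log2 differences of TPM + 1 (horizontal axis) of the 10 genes between the ATPase alleles and of each allele from the deletion of its subunit. Filled red points passed limma's test, open points did not, lines are 95% confidence intervals, and the green dashed line is the median of all genes. ZRT1 lies at 0.03 between the ATPase alleles and left of 0 in each allele against its deletion, where ADH4 lies right of 0.

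Between the wild types, 1 of the 10 genes was higher in SNF2 (ZRT1) and 3 were lower (ZPS1, IZH2 and IZH4), where 1.41% and 2.56% of 6405 genes were called so. IZH2 differed by -0.34 ± 0.07 (limma adjusted p = 0.00234). ZPS1 differed by -0.50 ± 0.13 (adjusted p = 0.0353) although its libraries overlapped. Its call was lost after quantile scaling (-0.43), with only the groups compared in the fit (-0.50, adjusted p = 0.219) and without SWI3 replicate 1 (-0.38) or 2 (-0.49), or SNF2 replicate 1 (-0.44) or 3 (-0.39). IZH1 passed as lower, at -0.31, without SWI3 replicate 3, and ADH4 at -0.31 without SNF2 replicate 2. Whether these differences in ZRT1, IZH2 and IZH4 enter the comparisons of a mutant with its own wild type was not tested.

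The effect of deleting the subunit was then compared between the families, in 1 fit of all 21 libraries. It differed for ZRT1, by -0.54 ± 0.13 (limma adjusted p = 0.0273), the fall being larger in the SNF2 family; 0.859% of all genes were called in that direction and 1.42% in the other. The levels in the 2 deletions were close, 51.0 ± 2.73 TPM in swi3del and 49.6 ± 6.23 in snf2del, while the wild types were not. This call was lost without any 1 of SWI3 replicates 1 (-0.55) and 2 (-0.52), swi3del replicates 1 (-0.52) and 3 (-0.52), SNF2 replicates 1 (-0.51) and 2 (-0.50) and snf2del replicate 2 (-0.43). For IZH4 the difference was 0.72 ± 0.20 and did not pass (adjusted p = 0.0589). It passed without swi3del replicate 2 (0.86), without snf2-Q928K replicate 1 or 3 (0.72 in both) and with a pseudocount of 0.1 (0.78).

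Other genes of zinc transport were counted too. Of 6 such genes, 4 rose and 2 fell in swi3del and likewise in snf2del, and 4 rose and 0 fell in snf2-Q928K. Set beside the shares of all genes given above (47.4% higher and 24.3% lower in swi3del, 50.2% and 24.6% in snf2del, 36.3% and 20.7% in snf2-Q928K), the counts in the deletions are near the background. In snf2-W935R 1 rose and 0 fell, against 16.3% and 10.9% of all genes. In swi3-E815X limma called 0 in either direction, against 3.06% and 5.77%. COT1, a vacuolar importer of cobalt and zinc, stood at 92.6 ± 8.81 TPM in SNF2, 110 ± 3.71 with snf2-W935R, 226 ± 20.4 with snf2-Q928K and 220 ± 22.1 with snf2del. Like IZH4, COT1 had overlapping levels in snf2-Q928K and the deletion, and its change in snf2-Q928K was 1.28 ± 0.09 (adjusted p = 2.15e-08). YKE4, a zinc transporter of the endoplasmic reticulum, rose by 1.46 ± 0.11 in swi3del and 1.68 ± 0.09 in snf2del.

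Among the falls in the deletions were ZRC1, the main vacuolar zinc importer, at -0.65 ± 0.06 in swi3del and -0.43 ± 0.06 in snf2del, and FET4, a low-affinity metal importer, at -1.07 ± 0.07 in swi3del. MSC2, which acts in zinc transport into the endoplasmic reticulum, rose by 0.83 ± 0.07 in snf2del and 0.46 ± 0.07 in snf2-Q928K. In the authors' deposited tables MSC2 was not called in snf2-Q928K (adjusted p = 0.561) and is not listed for snf2del. In swi3-E815X, at an unadjusted p under 0.05, 0 of the 6 genes were higher and 2 lower, and the authors' deposited table calls 0. The medians of the list were 0.42 in swi3del, 0.56 in snf2del and 0.37 in snf2-Q928K, above those of all genes.

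A list of 12 other genes known as Zap1 targets had 6 rises and 2 falls in swi3del, 7 and 2 in snf2del, 8 and 2 in snf2-Q928K, 4 and 0 in snf2-W935R, and 2 and 0 in swi3-E815X. The rises in the deletions are again close to the 47.4% and 50.2% of all genes called higher there, and 24.3% and 24.6% were called lower. In snf2-Q928K 36.3% of all genes were called higher and 20.7% lower. These shares were 16.3% and 10.9% in snf2-W935R, and 3.06% and 5.77% in swi3-E815X. ICY2 led it in every mutant, from 55.0 ± 4.24 TPM in SNF2 to 170 ± 8.54 under snf2-W935R, 320 ± 1.71 under snf2-Q928K and 825 ± 40.4 under snf2del. TSA1, a peroxiredoxin, rose by 0.98 ± 0.06 in swi3del, 1.23 ± 0.08 in snf2del, 0.98 ± 0.08 in snf2-Q928K and 0.42 ± 0.08 in snf2-W935R. DPP1, a phosphatase of phospholipid metabolism, rose by 1.13 ± 0.07 in swi3del, 1.30 ± 0.09 in snf2del and 0.61 ± 0.09 in snf2-Q928K. The authors' deposited table did not call DPP1 in snf2-Q928K (adjusted p = 0.0874). No member of this list or of the transporter list was called lower in snf2-W935R, where 10.9% of all genes were. At that share, lists of this size would hold few falls. At an unadjusted p under 0.05 the falls there were 1 in this list and 0 in the transporter list. ZRT1, ZRT2 and IZH2 were called lower in that allele. Whether ZRT1 stands apart from the genes of these lists was not tested.

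The other alcohol dehydrogenases were compared with ADH4. Of 7 genes, 2 rose and 3 fell in swi3del, where 47.4% of all genes were called higher and 24.3% lower. In snf2del 3 rose and 3 fell, against 50.2% and 24.6% of all genes. The main fermentative isozyme, ADH1, fell by 1.48 ± 0.11 on the log2 scale in swi3del and by 1.36 ± 0.08 in snf2del. ADH2, similar in sequence to ADH1 so that reads may be shared, fell by 1.57 ± 0.11 and 1.20 ± 0.12. By limma ADH5 rose in all 5 mutants, by 1.01 ± 0.13 in swi3del, 0.62 ± 0.13 in swi3-E815X, 1.04 ± 0.08 in snf2del, 1.03 ± 0.08 in snf2-W935R and 0.90 ± 0.08 in snf2-Q928K. The authors' deposited tables called ADH5 in swi3del and snf2-W935R (adjusted p = 0.0412 and 0.0451). They did not call it in swi3-E815X or snf2-Q928K (adjusted p = 0.724 and 0.0755), and it is not listed for snf2del. ADH3, a mitochondrial isozyme, fell in both ATPase alleles, by 0.30 ± 0.08 and 0.51 ± 0.08, where the ADH4 libraries overlapped with the wild type. ADH3 was also called lower by limma in swi3del, at -0.21 ± 0.08, and in snf2del, at -0.47 ± 0.08. In the authors' deposited table ADH3 was not called in snf2-W935R (adjusted p = 0.0594). ADH7 stood at 0.585 ± 0.137 TPM in SNF2 against 15.9 ± 0.523 in SWI3 and 15.9 ± 2.33 in snf2-W935R, so that the SNF2 group itself stands apart for that gene.

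**Figure D4:**
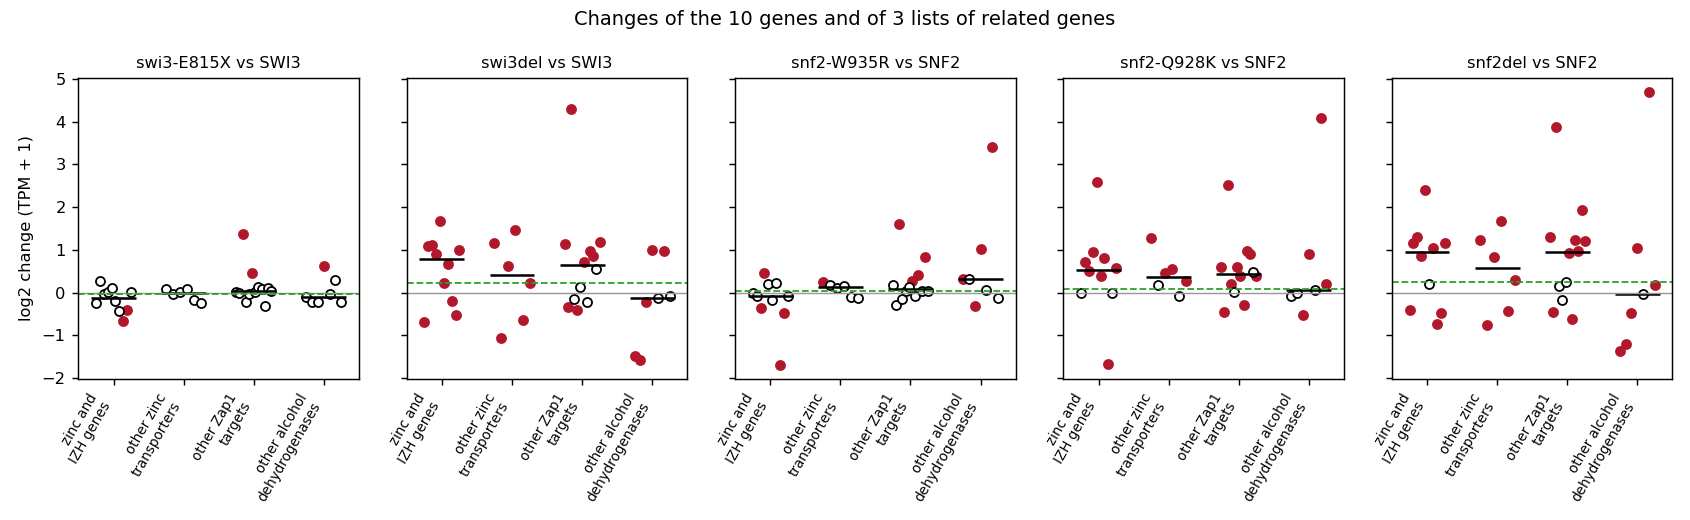
Log2 changes of TPM + 1 (vertical axis) of the 10 genes and of the 6 other zinc transporters, 12 other Zap1 targets and 7 other alcohol dehydrogenases in each mutant against its own wild type. Each point is a gene, filled where it passed limma's test, with black dashes at list medians and the green dashed line at the median of all genes; the low point of the 10 genes in both ATPase alleles is ZRT1, and the high point among Zap1 targets is ICY2.

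IZH4 was the 1 gene of the set whose group means spanned at least 4-fold (6.05-fold on TPM + 1). The 3 genes with the most alike profile over the 7 group means, among 6128 genes, were HPF1, ADY2 and GRE1, at root mean square differences of 0.30, 0.34 and 0.36 on the log2 scale. HPF1, a cell wall mannoprotein, stood at 68.8 ± 5.90 TPM in SNF2, 74.4 ± 2.01 with snf2-W935R, 358 ± 24.1 with snf2-Q928K and 366 ± 58.5 with snf2del. It is also the neighbour of ZPS1 on chromosome XV, transcribed away from it across 3051 bases. ADY2, an acetate transporter, had 2.05 ± 0.316 TPM in SNF2 and 15.0 ± 2.60 in snf2-Q928K, and GRE1, a stress-induced hydrophilin, 2.68 ± 1.70 and 12.2 ± 2.58.

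None of the 10 genes overlapped an annotated gene in R64, and nucleotide BLAST found no similar stretch elsewhere in the genome for any of them, the 4 IZH genes among each other included. ADH4 and ZRT1 lie on the same strand of chromosome VII, with 1 annotated noncoding transcript, SUT532, between them, on the opposite strand and 3268 bases from ZRT1.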

How the data were processed

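Levels were deposited by the authors as TPM for each gene and library, per the file headers. The submitters' processing notes list HISAT2, StringTie and DESeq2, with builds R64 and sacCer3 (the same assembly). Their versions and settings, and whether counting used strand, were not given. Libraries were poly(A)-selected and directional, per the labels' protocols. The authors' deposited comparison tables hold a log2 fold change with its SE, p-values before and after adjustment, and a score of the test, which was not used. The table of snf2del lists only genes that passed.

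Genes reaching 1 TPM in 3 or more of the libraries fitted were kept, and their log2(TPM + 1) values went into limma (version 3.58.1, with statmod 1.5.0 and R 4.3.3), with trended, robust moderation. The SWI3 family, the SNF2 family and, for comparisons between families, all 21 libraries were each fitted, giving 11 comparisons; p-values were adjusted over all genes tested. The fit was tested on simulated data. All sample columns were used (0 left out). The 10 genes and the related lists were chosen with earlier results of these data known. Other genes named are those of each list with the smallest p, up to 4 per comparison, profile neighbours of genes spanning at least 4-fold with a mean of at least 5 TPM, and adjacent genes. ICY2 has another name in the annotation and was not searched for motifs. Positions and sequences are from RefSeq R64; similar copies were sought with BLAST 2.17.0. Figures used matplotlib 3.10.9. Alternatives were pseudocounts of 0.1 and 0.5, quantile or median-ratio scaling, no filter, moderation without trend, other sets of libraries, the wild type of the other family as control, leaving out single libraries, and a replicate block.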

Additional observations from a re-analysis of the deposited data

Results flagged for a closer look

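The effect of deleting the subunit on ZRT1 differed between the families by a test of that difference, at -0.54 ± 0.13 on the log2 scale (limma, 1 fit of 21 libraries, adjusted p = 0.0273). ZRT1 fell from 83.2 ± 6.87 to 49.6 ± 6.23 TPM in the SNF2 family and from 58.6 ± 1.80 to 51.0 ± 2.73 in the SWI3 family (n = 3 each). With the groups compared alone in the fit the value was the same and the call was lost. Whether strain differences between the wild types play a part was not tested.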

How the results depend on the processing

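No call of the 10 genes changed without the filter, with moderation without trend or with a pseudocount of 0.5; a pseudocount of 0.1 made 1 gene (IZH4) higher in the difference of deletion effects.

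Scaling mattered most where the median gene shifted. Median-ratio scaling gave 2178 genes higher in swi3-E815X than swi3del, 2 of the 10 among them, 2414 lower in snf2del, 2381 higher in snf2-W935R than snf2del with 2 of the 10 (ZRT2 turned to 0.22), 5 of the 10 higher in snf2-Q928K than snf2del, and 1396 lower in snf2-Q928K than snf2-W935R. Quantile scaling gave 2412 lower in swi3del (ZAP1 turned to -0.13), 2325 higher and 1985 lower in swi3-E815X than swi3del with 2 of the 10 higher, 2593 lower in snf2del, 2559 and 2195 higher in snf2-W935R and snf2-Q928K than snf2del with 4 of the 10 in the latter, and 1494 lower in snf2-Q928K than snf2-W935R. Shares of all genes under these scalings are not given, so the counts of the 10 genes have no background beside them. Beyond the cause built into a rescaling, the cause was not tested.

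Fitting only the groups compared gave 68 genes lower in SNF2 than SWI3 and 0 of the 10 lower in the difference of deletion effects. Fitting all 21 libraries gave 1 of the 10 higher (IZH1) and 4 lower (ZRT1, ZRT2, ZPS1 and ADH4) in swi3-E815X, and ZRT1 in swi3del was no longer called. The shares of all genes called in that fit are not given here, so these counts have no background beside them. With the other family's wild type as control, IZH2 in swi3-E815X turned to 0.31 and IZH4 in snf2-W935R to -0.72.

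Leaving out single libraries gave 95 to 185 genes lower in SNF2 than SWI3 (95 without SNF2 replicate 1, 105 without SWI3 replicate 1), 0 to 1 of the 10 higher and 0 to 1 lower in the difference of deletion effects, and 1 to 2 higher in snf2-W935R. Same-numbered libraries correlated from -0.185 to 0.188 over 27 pairs, 4 of them over 0.1. Other-numbered libraries did so from -0.265 to 0.156 over 54 pairs, 7 of them over 0.1. Of 21 libraries, 9 were closest to those of their own number, so no clear pairing by number was seen over both families together. In the SWI3 family same-numbered pairs ran from -0.0129 to 0.188 and the others from -0.265 to 0.147. In the SNF2 family same-numbered pairs ran from -0.185 to 0.167 and the others from -0.207 to 0.156. Pairing within a family was not tested. Whether same-numbered libraries share a day was not tested. A replicate block moved 1 call, ZAP1 in swi3del (0.23). Read depth is unknown, so no limit from counting can be given.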

Other observations

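ZRT1 and ADH4 belong to a row of zinc-related genes near the left end of chromosome VII, with VEL1 (11110 to 11730) and MNT2 (12481 to 14157), both listed as Zap1 targets. In swi3del ZRT1 (-0.20), ADH4 (-0.70) and MNT2 (-0.41) were called lower, as were 24.3% of all genes, and VEL1 was not called (limma adjusted p = 0.157). The ZRT1 call was lost without any of several single libraries, as given above. In the authors' deposited table neither ZRT1 nor MNT2 was called there (adjusted p = 0.206 and 0.0764). VEL1 was low throughout, its mean being 0.982 ± 0.588 TPM for SNF2 libraries and 3.44 ± 0.829 for SWI3 libraries. It was called higher in snf2-W935R (0.83 ± 0.22, limma adjusted p = 0.0114). In snf2del it rose to 6.39 ± 0.196 TPM (1.94 ± 0.22, limma adjusted p = 1.31e-06). The authors' deposited tables give VEL1 no adjusted p in snf2-W935R and do not list it for snf2del. MNT2, a mannosyltransferase, was not called there (adjusted p = 0.0761), while ZRT1 and ADH4 fell. In snf2-Q928K MNT2 stood at 43.8 ± 4.15 TPM against 43.5 ± 2.91 in SNF2, and VEL1 and ADH4 were not called either. ZRT1 was thus the 1 gene of these 4 called in that allele, where 36.3% of all genes were called higher and 20.7% lower. Differences between the genes were not tested.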
